A study of Mus musculus with 6 samples.

Results

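The genes described here are 39 interferon-response genes of mouse inguinal white adipose tissue, the subcutaneous fat depot of the groin. They were taken by symbol from a fixed list and make up 39 of the 17342 named genes in the data. Of the 39, 35 had a mean of at least 1 FPKM (fragments counted per kilobase of transcript and scaled to the size of the library) over all libraries and entered the test, as did 11086 genes in all. All 35 also reached a mean of 1 FPKM within each genotype. The other 4 (Ifi44, Mx1, Oas3 and Mx2) are given by their level only.

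RNA was sequenced from fat of cold-stimulated Rarres2-/- mice (3 libraries, numbered 4, 5 and 6) and cold-stimulated wild-type (WT) mice (3 libraries, numbered 1, 2 and 3). Rarres2 encodes chemerin, a protein secreted by adipocytes that attracts immune cells. Both groups were C57BL/6 mice of 8 weeks, and the comparison addresses what loss of chemerin changes in cold-exposed fat. The sources used here do not give the temperature and length of the cold, the sex of the mice, the deleted part of Rarres2 or the number of mice behind each library. No unstimulated fat was analysed here. Since separate mice are not stated, p-values measure the spread among these libraries, which may be technical.

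Interferons are secreted proteins that put cells into an antiviral state. Type I interferons signal through Ifnar1 and Ifnar2 and activate a complex that holds Stat2 and Irf9 and binds the interferon-stimulated response element (ISRE). Interferon gamma, made by T and NK cells, signals through Ifngr1 and Ifngr2 and acts on genes through the gamma-activated site (GAS). The Ifit, Oas and Mx genes are best known as targets of type I interferon, and the Gbp and Irg GTPases and Irf1 as targets of interferon gamma, although both kinds of interferon induce many of them. In fat, macrophages, endothelial cells and adipocytes can all express such genes. In whole tissue, fewer cells of a type and less RNA per cell cannot be told apart.

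The deleted gene itself, Rarres2, had 0.260, 6.35 and 1.41 FPKM in Rarres2-/- fat and 436, 610 and 505 FPKM in WT fat. White adipocyte markers were abundant in every library, with Adipoq at 2118 FPKM or more. The absolute depth is unknown. Relative to WT replicate 2, depth estimated from the steps between low values lay between 0.495 and 1.01. By this estimate WT replicate 1 was the shallowest. The estimate is weak there, since 1.97% of the 763 low genes used lay at it. In the other libraries compared with WT replicate 2 the share was 3.96% to 14.1%. In WT replicate 1 Snord2 alone held 62.1% of the summed FPKM of named genes. The top gene of each other library held 4.99% to 16.7%. The median over tested genes was 9.05 FPKM in WT replicate 1 and 9.05 to 9.37 FPKM in the others. WT replicate 1 also stood apart in cell type markers. Its endothelial markers (6 genes) summed to 248 FPKM, against 46.2 to 156 FPKM in Rarres2-/- and 47.6 and 49.96 FPKM in the other WT libraries. Its skeletal muscle markers (6 genes) summed to 878 FPKM, against 160 to 290 FPKM in Rarres2-/- and 82.0 and 152 FPKM in the other WT libraries. WT replicate 1 was the highest library in 5 of the 6 endothelial markers. Of the 6 skeletal muscle markers, it was the highest library in 4 and the lowest in 1. Rarres2-/- replicate 4 had the highest endothelial sum of its genotype. It also had the lowest sum of white adipocyte markers (8 genes), at 39627 FPKM, against 58429 to 75170 FPKM in the other libraries. Of these 8 genes, it was the lowest library in 5 and the highest in 1. Members that change direction without WT replicate 1 are named below.

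No interferon-response gene passed the test between genotypes. By limma with Benjamini-Hochberg adjustment, 0 of 35 members and 0 of 11086 genes (0%) had an adjusted p under 0.05. At an unadjusted p under 0.05 there were 2 members of 35 (Cmpk2 and Irf1, both lower in Rarres2-/-), which is 5.71%, against 3.93% of all tested genes in either direction. Of all tested genes, 2.2% were higher and 1.73% lower at that p. The log2 difference (Rarres2-/- minus WT, on log2(FPKM + 1)) was above 0 for 13 members and below 0 for 22, where 48.6% of all tested genes were higher and 51.4% lower. By mean FPKM, 11 members were higher in Rarres2-/- and 24 lower. The median log2 difference was -0.07 over the 35 members and -0.01 over all tested genes. The 3 Rarres2-/- libraries lay wholly on one side of the 3 WT libraries in 4 tested members, Irf1 and Cmpk2 below and Gbp2 and Parp9 above. That is 11.4% of the members, near the 10.3% of all tested genes (5.81% above and 4.53% below).

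**Figure D1:**
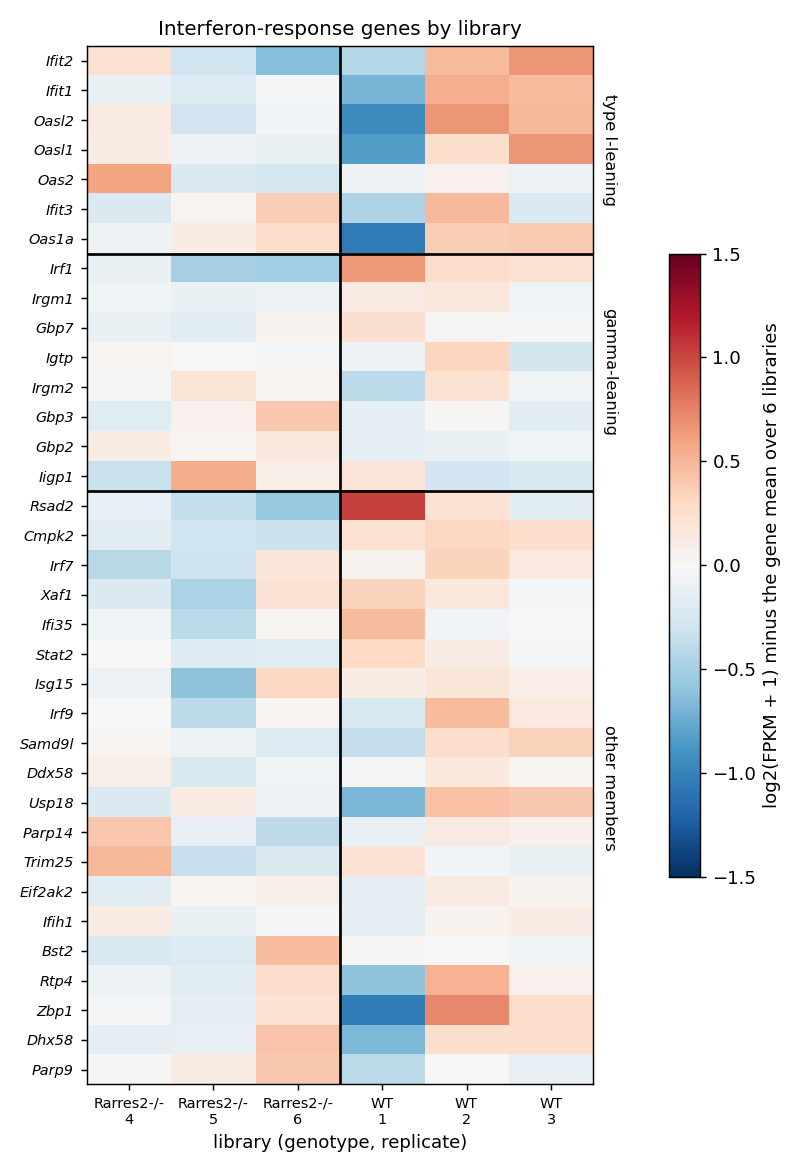
Each cell is log2(FPKM + 1) of a tested member (rows, 35 genes in 3 groups) in a library (columns, 3 Rarres2-/- left and 3 WT right) minus the mean of that gene over the 6 libraries. Red is above and blue below the gene mean. WT replicate 1 is the lowest library in 14 of the 35 members, and WT replicate 2 the highest in 14 (28.8% and 11.5% of all tested genes).

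The transcription factors of the response all had lower means in Rarres2-/-, and Irf1 had the clearest gap. Irf1 (chromosome 11, 53770014 to 53778374, GRCm38) is a factor induced quickly by interferon gamma, and it drives the expression of antigen-presentation and guanylate-binding genes. It was at 21.9, 16.3 and 16.0 FPKM in Rarres2-/- replicates 4, 5 and 6, against 37.2, 28.3 and 27.3 FPKM in WT replicates 1, 2 and 3. The highest Rarres2-/- library lay below the lowest WT library, and the means were 18.0 ± 3.33 and 30.9 ± 5.40 FPKM (SD, n = 3 each). The log2 difference was -0.75 (SE 0.192), with an adjusted p of 0.999 by limma. With 1 library left out it ran from -0.89 to -0.61.

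Irf7, the factor that amplifies type I interferon production, was the most abundant of the 4, at 26.7, 28.7 and 40.8 FPKM in Rarres2-/- and 37.2, 45.5 and 39.8 FPKM in WT. Rarres2-/- replicate 6 lay within the WT range, and the log2 difference was -0.36 (SE 0.20, limma adjusted p = 0.999). Irf9 and Stat2, partners in the ISRE-binding complex, had overlapping libraries. Irf9 averaged 10.4 ± 1.76 FPKM in Rarres2-/- and 12.8 ± 3.32 FPKM in WT, and Stat2 averaged 5.65 ± 0.485 FPKM in Rarres2-/- and 6.96 ± 0.878 FPKM in WT (SD, n = 3 each). The annotated exons of Irf7 and Irf1 overlap genes on the opposite strand (Phrf1 and Gm17334) and those of Irf9 overlap Rnf31 on the same strand. No source used here gives the strand setting of the counting, so reads from these overlaps cannot be assigned.

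Cmpk2 and Rsad2 are neighbours on chromosome 12. Cmpk2, a mitochondrial nucleotide kinase, had the smallest p of all members. It was at 4.16, 3.71 and 3.65 FPKM in Rarres2-/-, against 5.78, 6.18 and 5.96 FPKM in WT, with no overlap. The log2 difference was -0.53 (SE 0.123), with a limma adjusted p of 0.939, and it stayed between -0.57 and -0.50 with any 1 library left out. Rsad2 encodes viperin, an antiviral enzyme that makes a chain-terminating nucleotide from the product of Cmpk2. It was at 3.38, 2.72 and 2.22 FPKM in Rarres2-/- and 8.70, 4.55 and 3.25 FPKM in WT. WT replicate 1 was far above the rest and WT replicate 3 lay within the Rarres2-/- range. The log2 difference of Rsad2 was -0.71 (SE 0.310, limma adjusted p = 0.999), and -0.37 without WT replicate 1. RefSeq places Rsad2 at 26442743 to 26456452 and Cmpk2 at 26469117 to 26479837.

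Parp9 and Bst2, also antiviral effectors, did not have the lower values of Cmpk2. Parp9, which acts with the ubiquitin ligase Dtx3l, was at 16.7, 18.0 and 22.3 FPKM in Rarres2-/-, against 12.3, 16.5 and 15.1 FPKM in WT. All Rarres2-/- libraries lay above all WT libraries, by a margin of 16.7 over 16.5 FPKM at the nearest pair. The log2 difference was 0.36 (SE 0.174, limma adjusted p = 0.999). The annotated exons of Parp9 overlap Dtx3l on the opposite strand, so reads from the overlap cannot be assigned without strand. Bst2, the gene of tetherin, which holds budding virus at the cell surface, was the most abundant member. It was at 85.9, 87.1 and 139 FPKM in Rarres2-/- and 102, 101 and 97.9 FPKM in WT. Rarres2-/- replicate 6 was above and the other Rarres2-/- libraries below all WT values. The log2 difference was 0.02 (SE 0.222).

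The remaining effectors had overlapping genotypes. Samd9l averaged 6.60 ± 0.632 FPKM in Rarres2-/- and 7.69 ± 2.12 FPKM in WT, and Xaf1 averaged 3.47 ± 1.11 FPKM in Rarres2-/- and 4.45 ± 0.684 FPKM in WT. Rtp4 averaged 14.5 ± 2.53 FPKM in Rarres2-/- and 15.01 ± 5.98 FPKM in WT, and Parp14 averaged 5.65 ± 1.92 FPKM in Rarres2-/- and 5.80 ± 0.571 FPKM in WT (SD, n = 3 each). For Rtp4 and Samd9l, WT replicate 1 held the lowest value of all libraries.

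Isg15 is a ubiquitin-like protein that is attached to other proteins and also secreted, Usp18 removes it, and Trim25 is a ligase that acts on the RNA sensor encoded by Ddx58. Isg15 was at 13.9, 9.39 and 18.7 FPKM in Rarres2-/-, against 16.1, 16.9 and 15.9 FPKM in WT. The WT libraries were close together, and the Rarres2-/- libraries spread on both sides of them. The log2 difference was -0.25 (SE 0.236, limma adjusted p = 0.999). It was -0.012 without Rarres2-/- replicate 5, -0.47 without Rarres2-/- replicate 6 and -0.64 with array weights (limma adjusted p = 0.0509). Usp18 averaged 5.82 ± 0.821 FPKM in Rarres2-/- and 6.76 ± 2.94 FPKM in WT, and Trim25 averaged 8.66 ± 3.23 FPKM in Rarres2-/- and 8.64 ± 1.17 FPKM in WT (SD, n = 3 each).

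**Figure D2:**
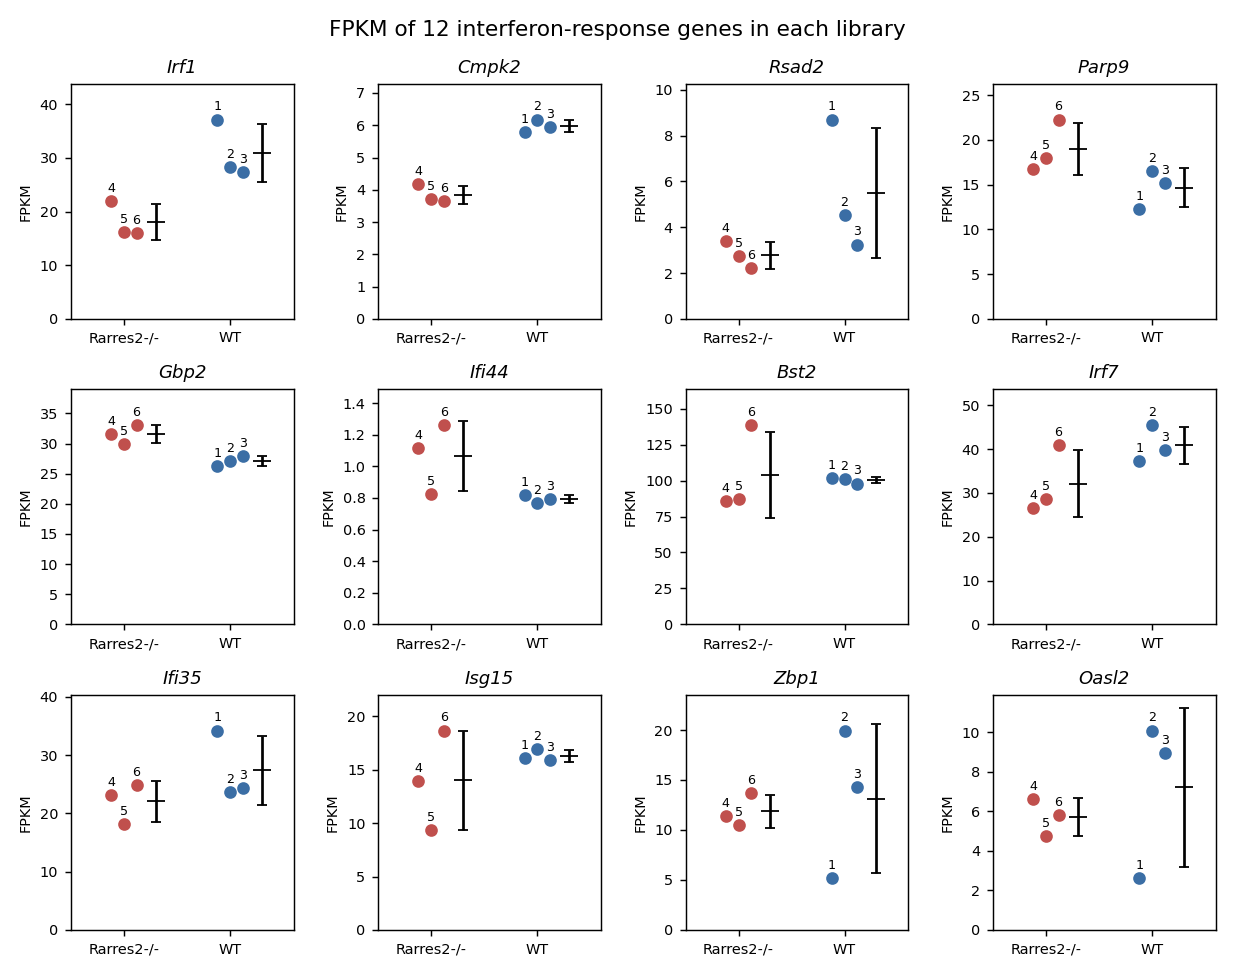
FPKM of the 12 members chosen by p, level or separation, with Rarres2-/- (red, replicates 4 to 6) left of WT (blue, replicates 1 to 3). Numbers are replicates, and black marks show mean and SD (n = 3 each). Irf1 and Cmpk2 have all Rarres2-/- points below all WT points, and Zbp1 and Oasl2 have WT replicate 1 far below the other WT points.

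The nucleic acid sensors were among the members with the least difference in mean. Zbp1, a sensor of Z-form nucleic acid that can trigger cell death, was the highest of the group, at 11.4, 10.5 and 13.7 FPKM in Rarres2-/- and 5.15, 19.9 and 14.3 FPKM in WT. WT replicate 1 lay below and the other WT libraries above all Rarres2-/- libraries, so the log2 difference of 0.03 (SE 0.430) averages WT libraries far apart, and it was -0.48 without WT replicate 1. Ifih1 and Ddx58, sensors of long and of short double-stranded RNA, differed little between libraries. Ifih1 ranged from 5.90 to 6.94 FPKM in Rarres2-/- and from 5.67 to 6.94 FPKM in WT, and Ddx58 from 4.76 to 6.15 FPKM in Rarres2-/- and from 5.65 to 6.53 FPKM in WT. Eif2ak2, the RNA-activated kinase that halts translation, averaged 8.70 ± 0.886 FPKM in Rarres2-/- and 8.94 ± 0.945 FPKM in WT (SD, n = 3 each). Dhx58, a regulator of the RNA sensors, averaged 4.36 ± 1.27 FPKM in Rarres2-/- and 4.09 ± 1.65 FPKM in WT.

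Members classed by gene name as type I-leaning were then set against those classed as gamma-leaning. The type I-leaning class held the Ifit, Oas and Mx genes (10 members, 7 tested), and the gamma-leaning class held Irf1, Gbp2, Gbp3, Gbp7, Irgm1, Irgm2, Igtp (also called Irgm3) and Iigp1 (8 members, all tested). They differed first in level. Mean FPKM over all libraries ran from 1.56 to 18.7 in the type I-leaning class (median 4.92), and from 12.1 to 29.3 in the gamma-leaning class (median 16.1). Untested were Mx1 at 0.507 to 0.560 FPKM in Rarres2-/- and 0.435 to 0.994 FPKM in WT, Mx2 at 0.309 to 0.720 FPKM in Rarres2-/- and 0.614 to 0.739 FPKM in WT, and Oas3 at 0.533 to 0.633 FPKM in Rarres2-/- and 0.175 to 1.17 FPKM in WT. RefSeq annotates both Mx1 and Mx2 in this C57BL/6J-based assembly as transcribed pseudogenes.

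The classes also differed in how far apart the libraries were. The ratio of the highest to the lowest library had a median of 3.21 over the type I-leaning members (1.99 to 5.24) and 1.54 over the gamma-leaning members (1.22 to 2.32), with 1.74 over all tested genes. The lower level of the type I-leaning members goes along with this, and its part was not tested. For the type I-leaning class, the median range on the log2 scale was 0.41 among Rarres2-/- libraries and 1.25 among WT libraries. For the gamma-leaning class it was 0.23 among Rarres2-/- libraries and 0.35 among WT libraries.

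Ifit1 and Oasl2 show a library pattern found in several type I-leaning members. Ifit1, which binds viral RNA lacking the host cap, was at 5.65, 5.17 and 6.05 FPKM in Rarres2-/- replicates 4, 5 and 6, against 3.38, 9.42 and 8.86 FPKM in WT replicates 1, 2 and 3. Oasl2, an oligoadenylate synthetase-like protein, was at 6.63, 4.73 and 5.80 FPKM in Rarres2-/- and 2.63, 10.1 and 8.93 FPKM in WT. In both, WT replicate 1 was below and the other WT libraries above the whole Rarres2-/- range. This pattern was not particular to the class. It also held in Zbp1, Usp18 and Samd9l, which are in neither class. Ifit1, like Oas1a and Oasl1 below, is given by library because of this pattern, after its values were seen, whereas Oasl2 is the most abundant Oas member.

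The same order held in Oas1a and Oasl1. Oas1a, which makes the messenger that activates RNase L, was at 4.34, 5.06 and 5.77 FPKM in Rarres2-/- and 1.69, 6.26 and 6.41 FPKM in WT. Oasl1, a translational repressor of Irf7 in mice, was at 1.92 to 2.41 FPKM in Rarres2-/- and 0.762, 2.80 and 3.99 FPKM in WT. Ifit2, Ifit3 and Oas2 kept less to it. Ifit2 was at 1.96 to 4.40 FPKM in Rarres2-/- and 2.42 to 6.28 FPKM in WT, Ifit3 was at 15.5 to 23.7 FPKM in Rarres2-/- and 13.0 to 25.8 FPKM in WT, and Oas2 was at 1.09 to 2.77 FPKM in Rarres2-/- and 1.37 to 1.63 FPKM in WT. WT replicate 1 was the lowest of the 6 libraries in 5 of the 7 tested type I-leaning members and in 2 of the 8 gamma-leaning members, where it was the lowest in 28.8% of all tested genes. Oas1a shares 68.7% of its 31-base words with Oas1g and Ifit3 shares 61.8% with Ifit3b, so the values of these members depend on how shared reads were assigned, which is not given.

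Macrophage markers and progenitor and fibroblast markers were both lowest in WT replicate 1, as most type I-leaning members were. The 11 macrophage markers summed to 942 to 1209 FPKM in Rarres2-/-, and in WT to 484 FPKM in replicate 1 and 2047 and 2049 FPKM in replicates 2 and 3. All 11 had lower means in Rarres2-/-, 0 passed the limma test, none was at 0 in any library, and WT replicate 1 was the lowest library in 10 of them. The 7 progenitor and fibroblast markers summed to 1732 to 2004 FPKM in Rarres2-/-, and in WT to 912 FPKM in replicate 1 and 4375 and 3157 FPKM in replicates 2 and 3. WT replicate 1 was the lowest library in all 7, and 0 passed the limma test. The part of either cell type in the interferon-response values was not tested. Siglech, a defining marker of plasmacytoid dendritic cells, which make type I interferon, was at 0.532 to 0.749 FPKM in Rarres2-/- and 0.350 to 2.01 FPKM in WT. T cell markers (8 genes with values) summed to 10.6 to 12.8 FPKM in Rarres2-/- and 4.24 to 33.1 FPKM in WT.

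**Figure D3:**
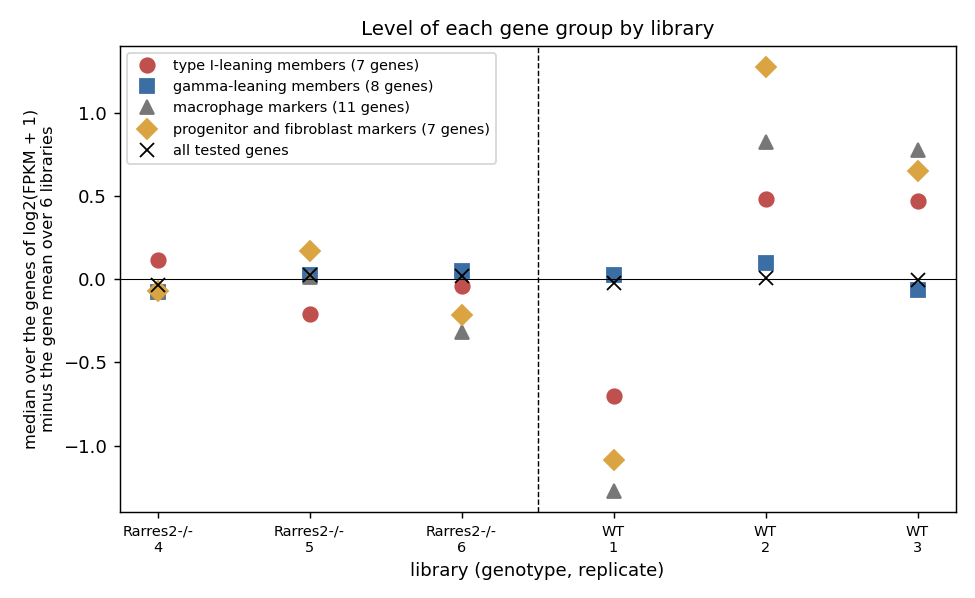
For each library (Rarres2-/- left, WT right), the points give the median over a gene group of log2(FPKM + 1) minus the gene mean over 6 libraries. The type I-leaning members, the macrophage markers and the progenitor and fibroblast markers are lowest in WT replicate 1 (-0.70, -1.27 and -1.09) and highest in WT replicate 2 (0.48, 0.82 and 1.27), while the gamma-leaning members stay between -0.08 and 0.10.

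Between genotypes, the median log2 difference was -0.06 over the 7 type I-leaning members (3 above and 4 below 0) and 0.08 over the 8 gamma-leaning members (5 above and 3 below). Without WT replicate 1 the type I-leaning median was -0.49, with 6 of 7 below 0. The gamma-leaning median was then -0.01, with 5 of 8 below 0, beside 49.4% below among all tested genes. The sign of the type I-leaning median depended on which WT library was left out. Leaving out WT replicate 2 gave a type I-leaning median of 0.12 (6 of 7 above 0) and a gamma-leaning median of 0.15. Leaving out WT replicate 3 gave medians of 0.05 (5 of 7 above 0) and 0.02. Without WT replicate 1 and Rarres2-/- replicate 4, the medians were -0.56 for the type I-leaning and 0.000339 for the gamma-leaning members. Leaving out WT replicate 1 changed the sign of 8 of the 35 members. Those turned below 0 were Zbp1, Rtp4 (0.02 with all libraries, -0.28 without), Dhx58 (0.11 and -0.20), Oas1a (0.20 and -0.28), Ifit3 (0.13 and -0.07), Irgm2 (0.14 and -0.02) and Igtp (0.02 and -0.01). Trim25 turned above 0 (-0.04 and 0.06). Usp18 kept its sign, with -0.11 and -0.48. In neither fit, without WT replicate 1 or without both libraries, did a member pass, although 68 genes (0.613% of those tested) passed in the second. Without WT replicate 1, Ifit1 had a log2 difference of -0.62 (SE 0.129, limma adjusted p = 0.237) and Oasl2 one of -0.65 (SE 0.165, limma adjusted p = 0.295). The difference between the classes was not tested.

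With libraries weighted by their estimated quality, limma called 9 of 35 members (25.7%), beside 13.7% of all tested genes. Of the members, 8 were lower in Rarres2-/- (beside 6.8% of all genes) and 1 was higher (beside 6.95%). Irf1, Cmpk2, Irf7, Irf9, Ifit1, Ifit2, Oasl2 and Samd9l were lower, and Iigp1 was higher. The estimate of the weights did not converge, and it gave low weights to Rarres2-/- replicate 4 (0.179) and WT replicate 1 (0.192). Rarres2-/- replicate 5 had a weight of 6.19 and replicate 6 one of 0.736, so the Rarres2-/- side rested mostly on replicate 5. Iigp1 was at 14.7, 28.1 and 20.1 FPKM in Rarres2-/- replicates 4, 5 and 6. With a stricter filter (0.0133% of genes called), with upper-quartile scaling (0.00902%), and without Rarres2-/- replicate 5 or 6 (0.00902% each), no member passed.

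**Figure D4:**
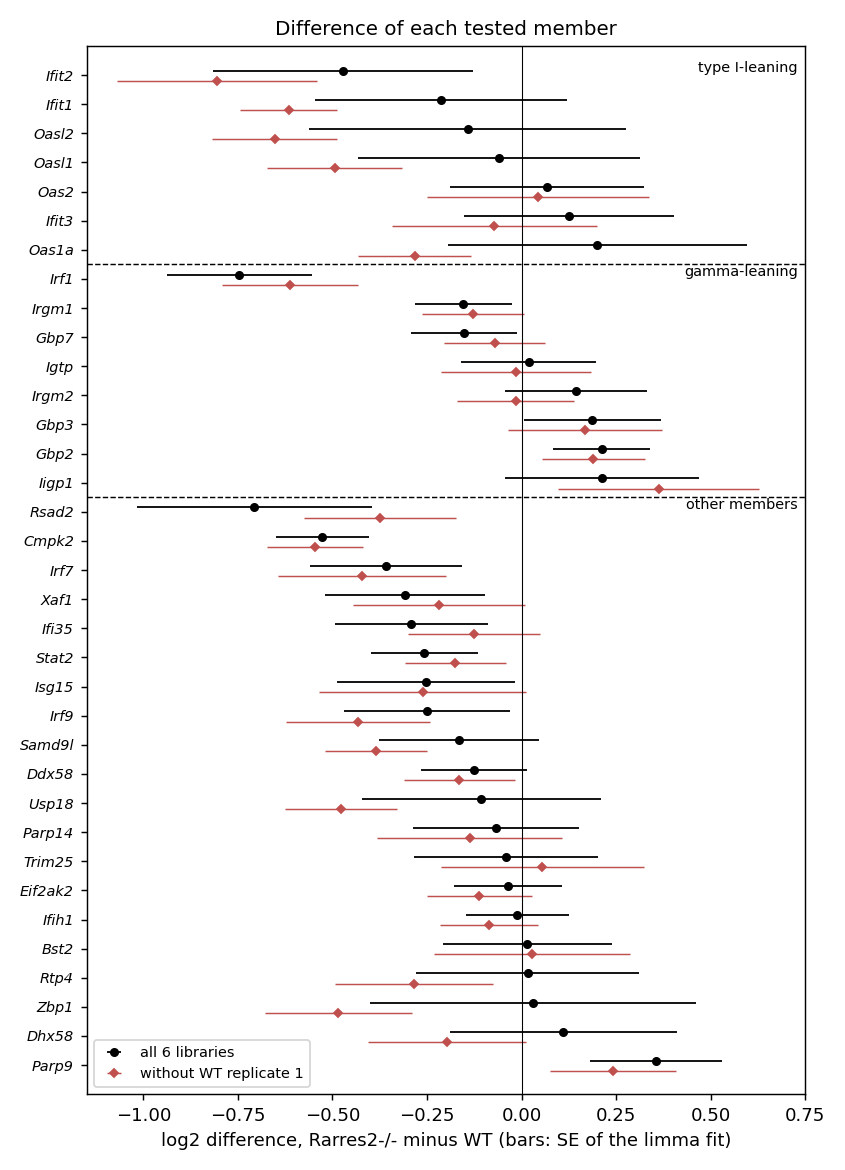
Log2 difference (Rarres2-/- minus WT) of each of the 35 tested members with its SE from limma, with all 6 libraries (black circles) and without WT replicate 1 (red diamonds). Leaving out that library moves most type I-leaning members to the left, such as Oasl2 (-0.14 with all libraries, -0.65 without it). The Gbp and Irg genes stay between -0.13 and 0.36. With WT replicate 2 or WT replicate 3 left out instead (not drawn), the type I-leaning median was 0.12 or 0.05.

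The Gbp and Irg GTPases, which coat and disrupt the vacuoles of intracellular pathogens, had highest-to-lowest ratios over the libraries of 1.22 for Irgm1 to 1.91 for Iigp1. Gbp2, the most abundant, was at 31.6, 29.997 and 33.1 FPKM in Rarres2-/-, against 26.3, 27.1 and 28.0 FPKM in WT. All Rarres2-/- libraries were above all WT libraries, with means of 31.6 ± 1.54 and 27.1 ± 0.845 FPKM (SD, n = 3 each). The difference was small, at 0.21 on the log2 scale (SE 0.129, limma adjusted p = 0.999), and it lay opposite in sign to that of Irf1. Gbp3 averaged 16.6 ± 3.62 FPKM in Rarres2-/- and 14.3 ± 1.07 FPKM in WT, and Gbp7 averaged 11.4 ± 1.01 FPKM in Rarres2-/- and 12.8 ± 1.39 FPKM in WT. Irgm1, which regulates the other Irg proteins, varied by no more than 12.2 to 12.6 FPKM in Rarres2-/- and 12.5 to 14.96 FPKM in WT. Igtp and Irgm2, its fellow regulators, averaged 16.8 ± 0.450 and 14.9 ± 1.29 FPKM in Rarres2-/-, and 16.8 ± 3.79 and 13.6 ± 3.10 FPKM in WT. Iigp1, an effector GTPase, had the widest range of the class among Rarres2-/- libraries, at 14.7 to 28.1 FPKM, and was at 15.2 to 21.6 FPKM in WT.

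The start regions of the members were searched for the ISRE and the GAS. RefSeq windows (GRCm38.p6, 250 bases before to 50 after the start) were matched by symbol for 29 of the 39 members. The ISRE core was searched as GAAANNGAAA and the GAS as TTCNNNGAA, each on both strands. The ISRE core was found in 17 of the 29 members (58.6%), against 3.99% of all 27025 genes with a window, and the GAS in 9 (31.03%), against 9.55% of all. By class, the ISRE core was in 4 of 7 type I-leaning and 6 of 7 gamma-leaning members with a window, and the GAS in 2 and 4 of them. A match is a string of letters and does not show binding. A missing match does not show that the element is absent, since only these exact strings were searched in these windows.

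The stretches below show how the motifs lie in members of each class, with 20 bases on either side where the region before the start allows it, and matches in capitals. Isg15 has overlapping ISRE cores in a row, Ifit1 and Ifit3 have a pair each on the opposite strand, and Irf1 has a GAS and no ISRE core. In Bst2 the GAS and the ISRE cores overlap.
Isg15, chr4:156200855-156200916, minus strand: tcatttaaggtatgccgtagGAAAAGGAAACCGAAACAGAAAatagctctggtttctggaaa
Ifit1, chr19:34640765-34640833, plus strand: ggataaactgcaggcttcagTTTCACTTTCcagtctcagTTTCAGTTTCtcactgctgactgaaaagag
Ifit3, chr19:34583353-34583436, plus strand: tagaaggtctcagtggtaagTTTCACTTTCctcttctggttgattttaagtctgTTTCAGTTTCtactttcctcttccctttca
Bst2, chr8:71537567-71537628, minus strand: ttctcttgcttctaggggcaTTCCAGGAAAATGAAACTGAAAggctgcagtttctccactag
Gbp2, chr3:142620584-142620633, plus strand: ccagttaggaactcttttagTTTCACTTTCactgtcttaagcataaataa
Irgm1, chr11:48871421-48871470, minus strand: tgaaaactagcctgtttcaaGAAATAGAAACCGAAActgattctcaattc
Igtp, chr11:58199491-58199551, plus strand: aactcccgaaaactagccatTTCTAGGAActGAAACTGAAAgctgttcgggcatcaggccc
Irgm2, chr11:58214882-58214942, plus strand: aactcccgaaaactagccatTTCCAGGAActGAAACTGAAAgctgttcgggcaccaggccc
Irf1, chr11:53769904-53769952, plus strand: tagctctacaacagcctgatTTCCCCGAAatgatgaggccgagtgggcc

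Igtp and Irgm2, which lie next to each other, have the same motif arrangement, and 59 of the 61 bases shown are identical. Their transcripts share 15.9% of the 31-base words of Igtp, so their counts could also share reads. Among tested members, the median log2 difference was -0.02 for the 16 with an ISRE core (7 above and 9 below 0) and -0.29 for the 11 with a window and none (0 above and 11 below). Of all tested genes, 51.4% were below 0. The signs depended in part on WT replicate 1. Without that library Oas1a, Ifit3, Igtp and Irgm2, which have an ISRE core, turned below 0, and Trim25, which has none, turned above 0. The 11 without a core held Irf1, Irf7, Irf9 and Cmpk2, and no test was made of this split.

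Upstream of these genes, the receptors were expressed at similar levels in both genotypes. Of the type I receptor genes, Ifnar2 was at 72.6 to 103 FPKM in Rarres2-/- and 85.9 to 92.5 FPKM in WT, and Ifnar1 at 6.73 to 9.10 FPKM in Rarres2-/- and 7.82 to 8.25 FPKM in WT. Of the interferon gamma receptor genes, Ifngr1 was at 75.1 to 103 FPKM in Rarres2-/- and 72.3 to 82.1 FPKM in WT, and Ifngr2 at 17.8 to 22.0 FPKM in Rarres2-/- and 14.0 to 22.7 FPKM in WT. Il10rb, a chain of the lambda interferon receptor, was at 21.9 to 27.9 FPKM in Rarres2-/- and 20.1 to 27.5 FPKM in WT. The ligand gene Ifng was near the floor, at 0.0537 to 0.143 FPKM in Rarres2-/- and at most 0.203 FPKM in WT. Of the type I interferon genes in the pathway list, Ifnk had values, above 0 in Rarres2-/- replicate 4 alone (0.0799 FPKM), and the others were not analysed here.

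Of 101 other interferon pathway genes, 78 were tested and 0 passed the limma test in either direction, with 24 log2 differences above 0 and 54 below. Genotypes were separated in 11 of the 78 (14.1%; 4 above and 7 below WT), beside 10.3% of all tested genes. Socs1, a feedback inhibitor of interferon signalling, was at 2.23, 1.48 and 1.95 FPKM in Rarres2-/- and 4.51, 3.86 and 3.15 FPKM in WT. Its log2 difference was -0.74 (SE 0.178, limma adjusted p = 0.990), with no overlap, as for Irf1.

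Socs3, an inhibitor of Stat3 signalling, averaged 2.51 ± 0.685 FPKM in Rarres2-/- and 5.02 ± 1.07 FPKM in WT (SD, n = 3 each), a log2 difference of -0.78. Irf8, a factor of macrophages and dendritic cells, averaged 5.23 ± 1.10 FPKM in Rarres2-/- and 7.37 ± 0.544 FPKM in WT (-0.44). Ifi30, a thiol reductase of antigen processing, averaged 34.2 ± 0.845 FPKM in Rarres2-/- and 49.1 ± 10.5 FPKM in WT (-0.49), and Ifi203, a member of the DNA-binding interferon-inducible family, averaged 9.04 ± 0.866 FPKM in Rarres2-/- and 12.4 ± 1.67 FPKM in WT (-0.41). Gbp6 averaged 8.97 ± 0.945 FPKM in Rarres2-/- and 6.69 ± 0.652 FPKM in WT (0.37). The other tested Gbp genes of the pathway list had log2 differences below 0, with -0.47 (SE 0.584) for Gbp4, -0.23 (SE 0.307) for Gbp5 and -0.14 (SE 0.375) for Gbp9. Socs3, Irf8, Ifi30, Ifi203 and Gbp6, like Socs1, were named for a small unadjusted p, so their lack of overlap between genotypes is no separate evidence, and the 5 had limma adjusted p-values of 0.999.

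Ifi35 and Ifi44 complete the members. Ifi35, a partner of the interferon-induced protein Nmi, was the most abundant of the Ifit and Ifi group, at 23.1, 18.2 and 24.9 FPKM in Rarres2-/-, against 34.2, 23.6 and 24.4 FPKM in WT. WT replicate 1 stood above the rest, and the log2 difference was -0.29 (SE 0.202) with all libraries and -0.13 without that library. Ifi44, below the filter, was at 1.11, 0.822 and 1.26 FPKM in Rarres2-/- and 0.820, 0.768 and 0.790 FPKM in WT. Its groups did not overlap, but the nearest libraries were 0.822 and 0.820 FPKM.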

How the data were processed

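The authors deposited 1 FPKM table for each library, and the headers name the unit in all but WT replicate 3, whose column carries the sample name and was read as FPKM from its genes and scale. Bowtie and mm10 are named by the submitters' processing notes. Which program, annotation and strand setting gave the FPKM was not given in the sources used here. An FPKM value is relative to a library total, and 737 rows without a symbol were left out.

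Genes averaging 1 FPKM or more were tested on log2(FPKM + 1), a scale on which changes of low genes come out too small. The tool was limma 3.58.1, run under R 4.3.3 (genotype as the only term, eBayes with trend, two-sided). P-values were adjusted over all 11086 genes. The script was tested on simulated data. The members and lists were chosen with earlier results of these data known. Values in every library are given for the 4 members with the smallest p, the 3 most abundant, the most abundant of each role group and those with separated genotypes. The receptors and 6 other pathway genes chosen by smallest p are also named, and 1 pathway gene is not reported here. Promoters come from RefSeq. Of their 33 windows, 27 matched a GENCODE M21 transcript in sense and 0 in antisense. The windows of Bst2 and Irgm2, from which stretches are printed, were among those without a match. Alternatives were another pseudocount, filter, scaling or weighting, and libraries left out.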

Additional observations from a re-analysis of the deposited data

How the results depend on the processing

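No paired analysis was possible because the genotypes share no replicate numbers. By limma, 0 members and 0 pathway genes passed under every alternative but array weights, where 9 members (8 lower, 1 higher), 23 pathway genes and 1524 genes in all (13.7%) passed. That fit stopped before it converged, gave Rarres2-/- replicate 4 a weight of 0.179, Rarres2-/- replicate 5 a weight of 6.19 and WT replicate 1 a weight of 0.192, and put the median of the members at -0.28. The 9 members were Cmpk2, Irf1, Irf7, Irf9, Ifit1, Ifit2, Oasl2 and Samd9l, all lower, and Iigp1, higher. Over all genes, 68 passed without WT replicate 1 and Rarres2-/- replicate 4 (median of the members -0.23, of the type I-leaning members -0.56, of the gamma-leaning members 0.000339), 1 with a filter of 5 FPKM in 3 libraries, 1 with upper-quartile scaling, and 0 to 1 with 1 library left out.

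With 1 library left out, the median ran from -0.17 to 0.01 for all members, from -0.49 to 0.12 for the type I-leaning members and from -0.015 to 0.15 for the gamma-leaning members. Bst2 ran from -0.21 to 0.13, Zbp1 from -0.48 to 0.40 and Oasl2 from -0.65 to 0.15. Bst2 was also -0.024 with quantile normalization and -0.12 with array weights, and Zbp1 was -0.57 with array weights and -0.46 without WT replicate 1 and Rarres2-/- replicate 4. Rarres2 had a log2 difference of -7.51 (SE 0.592, limma adjusted p = 0.0597) and passed with the stricter filter (-7.51), with upper-quartile scaling (-7.54), with array weights (-6.47), without WT replicate 1 and Rarres2-/- replicate 4 (-7.04), and without Rarres2-/- replicate 5 (-8.20). With 1 library left out it ran from -8.20 to -6.93, and its adjusted p over all alternatives from 0.00198 to 0.469. The causes were not tested. The absolute depth is unknown, so no counting limit can be given for members near 1 FPKM.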
